A study of Mus musculus with 18 samples.

Results

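The receptors for interleukins 2, 4, 7, 9, 15 and 21 were followed here in part, through 8 listed genes, in 3 populations of mouse spleen cells. The list holds the receptor chains Il2ra, Il2rb, Il2rg, Il4ra, Il7r and Il21r and the Janus kinases Jak1 and Jak3. It does not hold Il9r or Il15ra, which are counted among the partner receptor chains further below. Members were taken by gene symbol, as every probe set that the platform annotation gives to 1 of these names. On the 3 Affymetrix array types used (U74A, U74B and U74C), 9 of 36701 probe sets carried such a single symbol, and they cover 6 of the 8 genes: Il2ra, Il2rb, Il4ra, Il7r, Jak1 and Jak3. Il2rg, the common gamma chain itself, and Il21r had no matching probe set in the annotation used and are not analysed here. A further probe set is annotated to both Jak3 and Insl3. Its signals were 4 to 35.1, and it names no gene.

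The common gamma chain is a receptor subunit shared by the cytokines of this family. Each cytokine pairs it with a chain of its own, such as Il7r for interleukin 7 or Il4ra for interleukin 4, and interleukins 2 and 15 also use Il2rb. The private chain binds the kinase Jak1 and the common chain binds Jak3, and together they activate STAT factors. Interleukin 15 is known for sustaining natural killer (NK) cells, and interleukin 7 for sustaining T and B cell precursors and naive T cells.

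The populations, as the sample labels name them, were the interferon producing killer type of dendritic cell, abbreviated IKDC, the conventional type (cDC), which served as the submitters' control, and the plasmacytoid type (PDC). No genotype, strain, age or treatment is given in the sources used here, nor how the cells were sorted. Each population had 2 samples, prepared separately according to the series design, and each sample was hybridised to all 3 array types, giving 18 arrays. Whether the samples came from separate animals is not stated, so p-values are set against the spread between samples, part of which may be technical.

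Values below are signal intensities on a linear scale. They can be compared between samples for 1 probe set, not between probe sets. A signal of 60 was taken as the minimum level, and 8 of the 9 member probe sets reached it on at least 2 of 6 arrays and were tested. Of the signals of unspiked bacterial controls, 100% on U74A, 88.9% on U74B and 75.6% on U74C lay under 60. Their highest signals were 45.2, 122.7 and 148.7, so on U74B and U74C a signal over 60 can still be background. Differences are in log2(signal + 16), with the standard error (SE) from limma fitted to 23285 probe sets. Limma draws the spread of each probe set towards that of others of like intensity. An SE or p-value thus rests only in part on the probe set's own samples. P-values are adjusted by the Benjamini-Hochberg method over those probe sets, with 0.05 as the threshold. Median signals per array ran from 51.7 to 87.3, and having 2 samples a population limits the precision. For the Gapdh control, signal at the 3' end over that at the 5' end, a ratio that RNA breakdown and amplification raise, was 2.97 to 6.0. It was 6.0 in PDC replicate 1 and 3.19 in PDC replicate 2 on U74A, the widest gap within a population on that array type.

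The labels were set against marker genes of each population. All 6 tested NK cell markers, among them Ncr1, Klrk1 and Eomes, were higher in IKDC than in cDC, and all 8 plasmacytoid markers, among them Siglech and Tcf4, were higher in PDC than in cDC. Of 8 conventional dendritic cell markers, 6 were lower in IKDC than in cDC. Of all 12193 tested genes, 3.5% were higher and 4.07% lower in IKDC than in cDC, and 2.25% higher in PDC than in cDC. The 7 NK cell markers summed to 42907 and 47625 in IKDC, 2737 and 3500 in cDC and 4297 and 3369 in PDC. Most of each sum was Nkg7, which read 30720 and 34971 in IKDC, 1672 and 2281 in cDC and 2680 and 1813 in PDC. Such sums add probe sets of unlike scale, so they can be compared between samples for 1 list, not between lists. For T cell markers, the sums over 8 genes were 1456 and 998 in IKDC, 668 and 401 in cDC and 901 and 581 in PDC. In bulk samples of this kind, fewer cells of a type and less RNA per cell cannot be told apart.

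**Figure D1:**
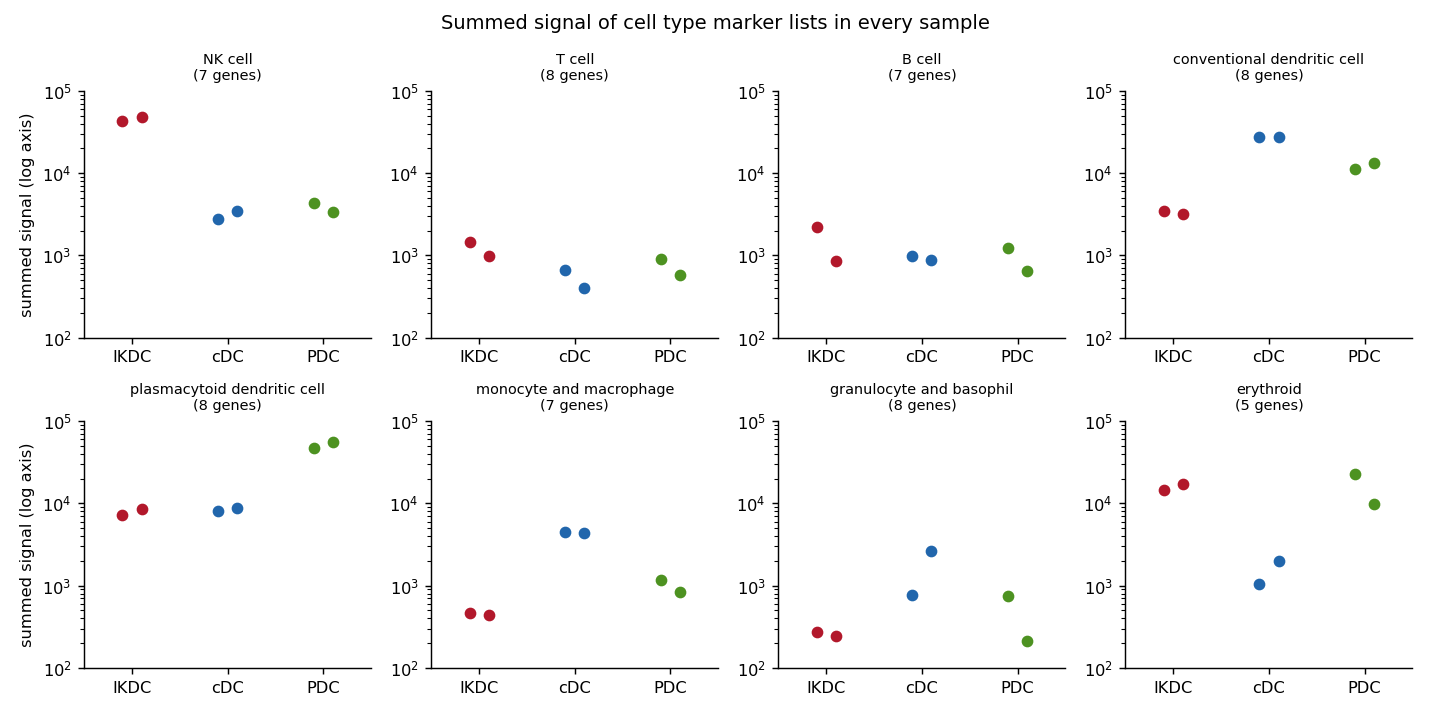
Summed signal (log axis) of 8 lists of cell type markers in each of the 2 samples of IKDC, cDC and PDC, using the brightest probe set of each gene. The NK cell sum, most of it from Nkg7, stands at 42907 and 47625 in IKDC and at most 4297 in the other samples. The T cell sum is at most 1456 in every sample. Sums of different lists are not on a common scale.

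Stretches upstream of 3 members are shown because they stand for different patterns among those found below: Il7r was highest in PDC, Jak1 was highest in IKDC, and Jak3 had no difference past the threshold. Each is bases 250 to 66 before the start site in the RefSeq promoter table (GRCm38.p6), 185 bases, 5′ to 3′ on the gene's strand. Capitals mark any match, on either strand, to TTCNNNGAA (the GAS element that STAT factors bind), CANNTG (the E-box), GGAAGT (an ETS core), TGTGGT (a Runx core) or GGGCGG (the GC box).
Il7r, chr15:9529942-9530126, minus strand: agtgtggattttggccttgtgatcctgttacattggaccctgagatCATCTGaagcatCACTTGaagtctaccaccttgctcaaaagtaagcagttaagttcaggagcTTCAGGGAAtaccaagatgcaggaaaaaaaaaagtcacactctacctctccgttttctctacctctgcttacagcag
Jak1, chr4:101265289-101265473, minus strand: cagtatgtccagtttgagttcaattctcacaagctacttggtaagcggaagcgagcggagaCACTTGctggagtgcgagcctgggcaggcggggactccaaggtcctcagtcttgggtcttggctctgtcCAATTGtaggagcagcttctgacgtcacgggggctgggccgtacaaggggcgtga
Jak3, chr8:71676133-71676317, plus strand: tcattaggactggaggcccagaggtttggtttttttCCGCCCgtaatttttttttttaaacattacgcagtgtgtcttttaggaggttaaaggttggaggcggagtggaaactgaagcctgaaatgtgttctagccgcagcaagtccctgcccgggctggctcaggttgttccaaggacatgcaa

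The Il7r stretch held 1 GAS match and 2 E-box matches, the Jak1 stretch 2 E-box matches, and the Jak3 stretch 1 GC box match. Over the 32851 windows of the same length and position in the table, 5.38% held a GAS match, 56.4% an E-box, 21.8% a GC box, 13.4% the ETS core and 10.7% the Runx core. These matches describe letters only. No promoter entry for Il2rb was matched in the table.

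Il2rb, the beta chain shared by the interleukin 2 and 15 receptors, was the receptor chain with the highest IKDC signal relative to the other populations. On U74B, probe set 112262_at had signals of 2924 and 4343 in the IKDC samples. The cDC samples had 401 and 504, and the PDC samples 562.5 and 409. Both IKDC samples lay above all others, while cDC and PDC overlapped. The mean signal was 3633 ± 1003 (SD, n = 2) in IKDC against 453 ± 72.5 (SD, n = 2) in cDC, a ratio of 8.03 and a log2 difference of 2.94 ± 0.28 (SE, limma adjusted p = 0.000261). Against PDC, with 486 ± 108 (SD, n = 2), the difference was 2.85 ± 0.28 (SE, limma adjusted p = 0.000328). Between PDC and cDC it was 0.09, with a 95% interval of -0.54 to 0.72, which did not pass (limma adjusted p = 0.936).

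The other Il2rb probe set, 100764_at on U74A, gave a smaller difference that did not pass. Its signals were 81.7 and 87 in IKDC, 57.2 and 72.2 in cDC and 60.6 and 39.7 in PDC, close to the minimum of 60. IKDC and cDC differed by 0.32 with a 95% interval of -0.52 to 1.17 (limma adjusted p = 0.717), an interval that ends below the one of 112262_at, 2.31 to 3.57. Why the probe sets disagree was not tested. NK cell markers were also at their highest in both IKDC samples, and their part in the Il2rb difference was not tested.

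Il2ra, the alpha chain that raises the affinity of the interleukin 2 receptor, was not measurable above the minimum in any sample. Its only probe set, 101917_at, read 3.4 and 3.2 in IKDC, 21.2 and 15.3 in cDC and 29.9 and 19.5 in PDC. All 6 values lay under 45.2, the highest signal of unspiked bacterial controls on U74A, so they have no order.

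Il7r, the alpha chain of the receptors for interleukin 7 and thymic stromal lymphopoietin (TSLP), was ordered differently, with its highest signals in PDC. Probe set 99030_at read 759 and 1537 in the PDC samples, 267 and 349 in IKDC and 91.8 and 114 in cDC. No 2 populations overlapped, and the PDC samples were the most spread. The means were 1148 ± 549.8 (SD, n = 2) in PDC, 308 ± 58.1 (SD, n = 2) in IKDC and 103 ± 15.7 (SD, n = 2) in cDC. PDC exceeded cDC by 3.21 ± 0.35 log2 units (SE, limma adjusted p = 0.000415), a ratio of mean signals of 11.2. Only 0.563% of all tested probe sets differed by at least that much in either direction. IKDC exceeded cDC by 1.44 ± 0.35 (SE, limma adjusted p = 0.0361) and lay below PDC, with a difference of -1.77 ± 0.35 (SE, limma adjusted p = 0.0141).

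T and B cells also express Il7r at some stages, so their markers are given beside it. PDC replicate 1, at 759 for Il7r, had summed T cell markers of 901 and B cell markers of 1248, and PDC replicate 2, at 1537, had 581 and 648.5. Of 8 T cell markers, 6 read lower in PDC replicate 2 than in replicate 1 and 2 higher, and of 7 B cell markers 5 read lower, 1 higher and 1 equal. In PDC replicates 1 and 2, Cd3e read 135 and 10.6, Cd3g 66.2 and 5.2, and Cd3d 145 and 101.5, all chains of the T cell receptor complex. The markers that read higher in replicate 2 were Cd28, at 183 and 223, Cd5, at 49.3 and 58.4, and Cd22, at 28.6 and 68.1. The part of T and B cells in the PDC signal of Il7r was not tested. In IKDC replicates 1 and 2, Cd3g read 466.5 and 173, Cd3e 56 and 8.8, Cd28 360 and 307, and Cd247 187 and 159. Cd3d read higher in IKDC replicate 2, at 102 and 124, and every other T cell marker read lower there. B cell markers summed to 2192 and 866 in IKDC and to 971 and 886 in cDC. The part of T and B cells in the IKDC signal of Il7r was not tested. The Gapdh ratio was also lower in PDC replicate 2, as given above, and its part in the Il7r spread was not tested. Erythroid markers, 5 genes, summed to 22743 and 9797 in PDC, 14576 and 17198 in IKDC and 1053 and 1994 in cDC, so their sum too was lowest in cDC. Hba-a1 alone read 21121 and 8068 in PDC, 12060 and 13455.5 in IKDC and 516 and 1348 in cDC. Of the 5, 3 were called higher in IKDC and 3 in PDC than in cDC, beside 3.5% and 2.25% of all tested genes. Slc4a1 read 309 to 384 over all samples. The part of erythroid cells was not tested.

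Il4ra, the chain that binds interleukin 4 and pairs with either the common gamma chain or Il13ra1, had 2 probe sets on U74A. The brighter, 102021_at, read 232.5 and 182 in IKDC, 153 and 111 in cDC and 45.4 and 78.1 in PDC. The populations did not overlap, in the order IKDC, cDC, PDC. Only the ends of that order differed past the threshold, with IKDC at 207 ± 35.4 (SD, n = 2) and PDC at 61.8 ± 23.1 (SD, n = 2), a log2 difference of 1.55 ± 0.35 (SE, limma adjusted p = 0.0284). IKDC and cDC differed by 0.60 (95% interval -0.17 to 1.37, limma adjusted p = 0.398), and PDC and cDC by -0.95 (95% interval -1.72 to -0.18, limma adjusted p = 0.212). The dimmer probe set, 161192_at, read 39.4 and 44.5 in IKDC, 77 and 53.5 in cDC and 63.5 and 46.8 in PDC, and passed in no comparison, with limma adjusted p of 0.595 to 0.907. Its IKDC signals, both under 60, were the lowest of the 6, opposite to the brighter probe set.

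**Figure D2:**
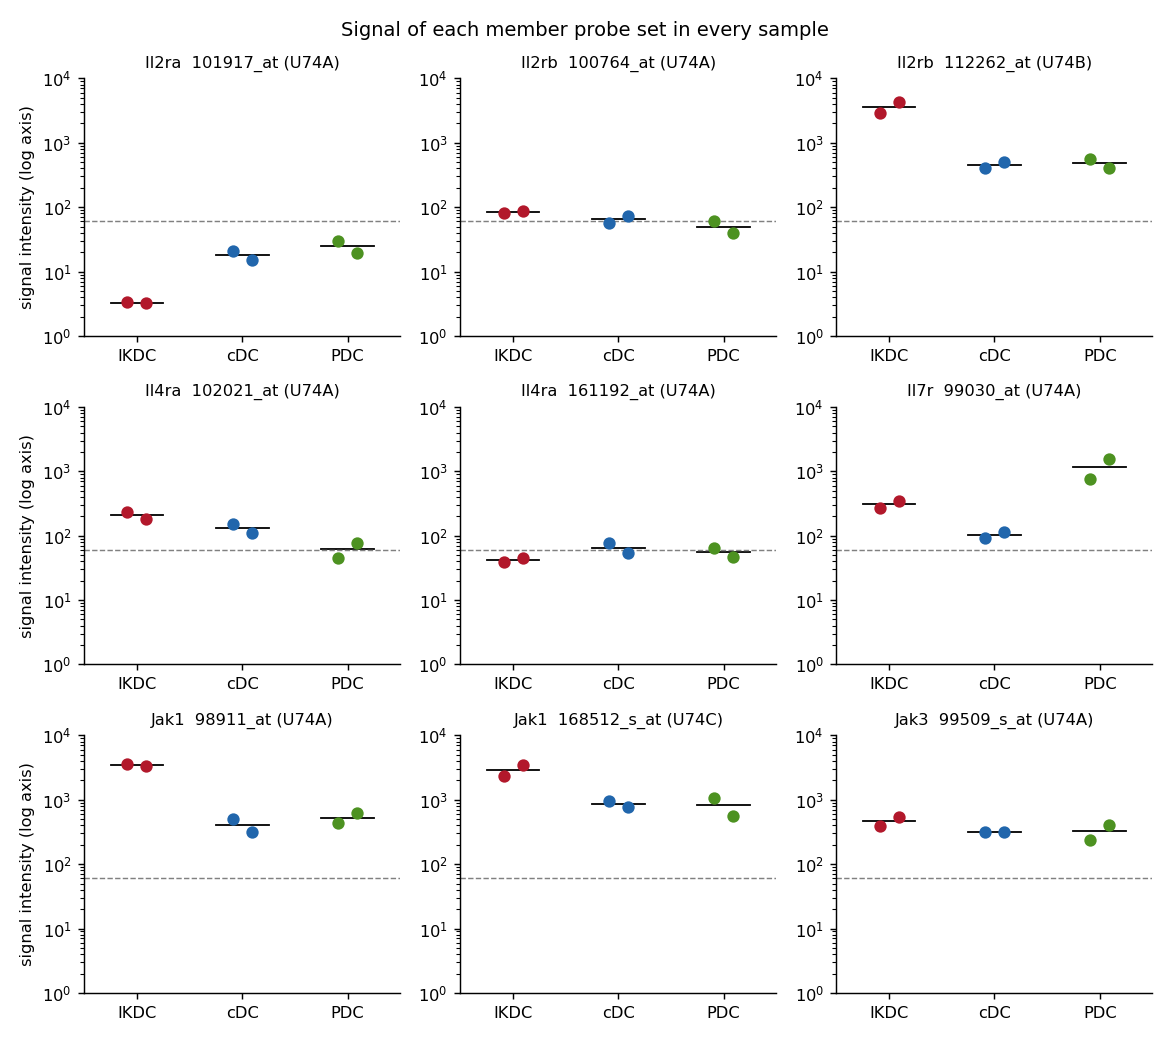
Signal intensity (log axis) of the 9 member probe sets in each sample of IKDC, cDC and PDC, with points for the 2 samples, black lines for their mean and a dashed line at the minimum of 60. Il2rb 112262_at and both Jak1 probe sets are highest in the IKDC samples, Il7r in the PDC samples (759 and 1537), and all Il2ra signals are under 60.

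Jak1, the kinase bound to the private chains and also to interferon and interleukin 6 family receptors, was higher in IKDC by both of its probe sets. On U74A, 98911_at read 3582 and 3379 in IKDC, 499 and 314 in cDC and 429 and 614 in PDC. On U74C, 168512_s_at read 2320 and 3410 in IKDC, 953 and 779 in cDC and 1073 and 567 in PDC. In each probe set both IKDC samples stood above all 4 others, and cDC and PDC overlapped. The U74A probe set had a mean of 3481 ± 143 (SD, n = 2) in IKDC against 406 ± 131 (SD, n = 2) in cDC, a ratio of 8.57 and a log2 difference of 3.08 ± 0.31 (SE, limma adjusted p = 0.000144). Against PDC, with 521 ± 131 (SD, n = 2), the difference was 2.72 ± 0.31 (SE, limma adjusted p = 0.000333). The U74C probe set gave smaller differences, 1.69 ± 0.34 against cDC (SE, limma adjusted p = 0.0153) and 1.83 ± 0.34 against PDC (SE, limma adjusted p = 0.011). Between PDC and cDC neither passed, at 0.36 (95% interval -0.31 to 1.03, limma adjusted p = 0.687) and -0.14 (95% interval -0.89 to 0.61, limma adjusted p = 0.917). The NK cell sum, mostly Nkg7 and at 42907 and 47625 in IKDC, moved with Jak1 as well, and its part was not tested.

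Jak3, the kinase bound to the common gamma chain, did not differ past the threshold in any comparison. Probe set 99509_s_at read 393.5 and 547 in IKDC, 321 and 319 in cDC and 239 and 408 in PDC. The IKDC and PDC samples overlapped, and both IKDC samples lay above both cDC samples. The log2 difference was 0.51 between IKDC and cDC (95% interval -0.19 to 1.22, limma adjusted p = 0.432) and 0.55 between IKDC and PDC (95% interval -0.16 to 1.25, limma adjusted p = 0.502). Between PDC and cDC it was -0.03, with a 95% interval of -0.74 to 0.67 (limma adjusted p = 0.983). Between IKDC and cDC the Jak3 interval ended at 1.22. The Jak1 interval of 98911_at started above it, at 2.41, and that of 168512_s_at overlapped it, starting at 0.94.

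**Figure D3:**
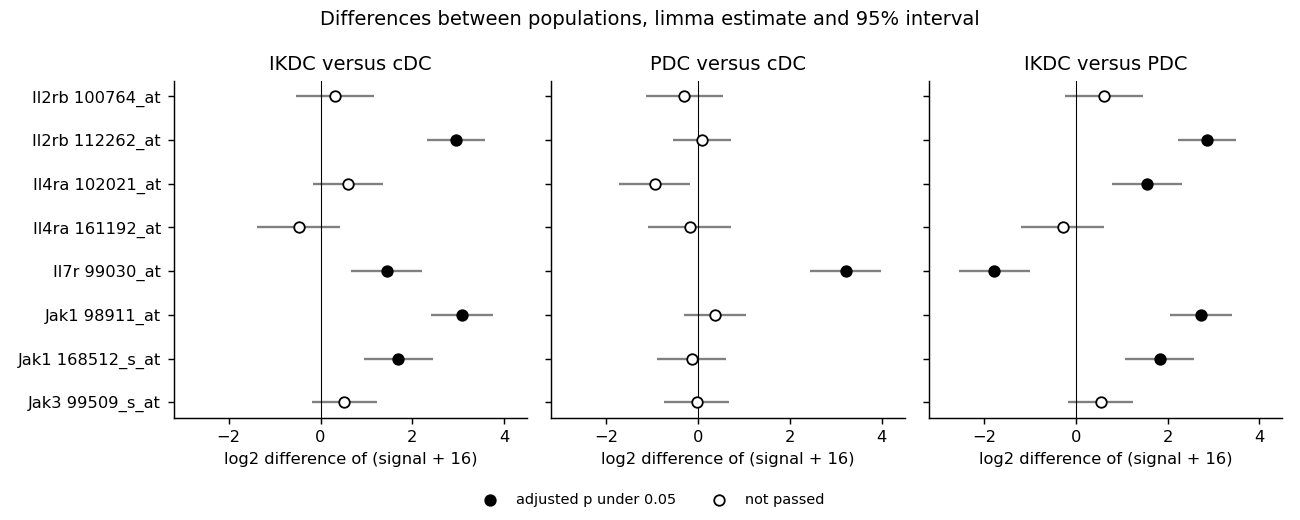
Log2 difference of (signal + 16) for the 8 tested member probe sets in 3 comparisons, with points for the limma estimate, bars for its 95% interval and filled points for an adjusted p under 0.05. Filled points lie to the right for Il2rb 112262_at and both Jak1 probe sets in both IKDC comparisons, and for Il7r in IKDC and in PDC against cDC.

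Counted over the 8 tested probe sets of 5 genes, 4, from the 3 genes Il2rb, Il7r and Jak1, were higher and 0 lower in IKDC than in cDC. Of all 23285 tested probe sets, 2.68% were called higher in that comparison and 2.92% lower. The member median was 1.02 log2 units against -0.01 for all tested probe sets. In PDC against cDC 1 member probe set, Il7r, was higher and 0 were lower by limma, beside 1.73% and 1.92% of all tested. The members' median between PDC and cDC was -0.09. At an unadjusted p under 0.05 the member count was 2 of 8 between PDC and cDC, with Il4ra 102021_at lower, beside 14.9% of all tested probe sets. Between IKDC and cDC it was 4 of 8, all higher, beside 18.9%. In IKDC against PDC 4 were higher, from Il2rb, Il4ra and Jak1, and 1 was lower, Il7r, beside 2.06% higher and 2.39% lower of all tested. The comparisons share samples and are not independent of each other. Members were chosen with earlier results of these data known, so the counts beside these shares are a description only.

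Of the 10 calls, 5 passed under all 16 alternative settings: Il2rb 112262_at and Jak1 98911_at in both IKDC comparisons, and Il7r between PDC and cDC. The other calls ended when 1 sample was left out. For Il7r between IKDC and cDC, the limma adjusted p was 0.11 without IKDC replicate 1, 0.256 without IKDC replicate 2, 0.203 without cDC replicate 1 and 0.112 without cDC replicate 2. Between IKDC and PDC the Il7r value was 0.141 without IKDC replicate 1, 0.058 without IKDC replicate 2 and 0.0705 without PDC replicate 2 (limma adjusted p). For Il4ra 102021_at it was 0.271 without IKDC replicate 1, 0.137 without IKDC replicate 2 and 0.109 without PDC replicate 1 (limma adjusted p). For Jak1 168512_s_at against cDC it was 0.159 without IKDC replicate 2, 0.0683 without cDC replicate 1 and 0.113 without cDC replicate 2, and against PDC 0.139 without IKDC replicate 2 and 0.0771 without PDC replicate 2 (limma adjusted p). All these differences kept their direction.

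Other genes of the pathway were taken from 6 lists, with a gene represented by its brightest tested probe set. Of 46 listed genes, 39 were tested. These lists too were chosen with earlier results of these data known, so their counts are a description only. Between IKDC and cDC 5 were higher and 1 lower in IKDC, beside 3.5% and 4.07% of all 12193 tested genes. Between PDC and cDC 1 was higher and 3 were lower in PDC, beside 2.25% and 2.75%. Between IKDC and PDC 4 were higher and 1 lower in IKDC, beside 2.71% and 3.17%. The same shares stand beside the counts of the single lists below. The median log2 difference of the 39 was 0.21, -0.30 and 0.43 in these comparisons, where that of all tested genes was 0.01, -0.00047 and 0.01.

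Among the cytokines themselves, 4 of 7 were tested and none passed in any comparison by limma, also at an unadjusted p under 0.05. Il7, the ligand of Il7r, read 83.9 and 107 in IKDC, 101 and 69.6 in cDC and 80 and 111.5 in PDC on U74B, all under 122.7, the highest unspiked control there. The probe sets of Il2 and Il15 did not exceed 4.2 and 21.4 in any sample.

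Of the 4 partner receptor chains none passed by limma on the brightest probe set, and at an unadjusted p under 0.05 the counts were 2 between IKDC and cDC, 0 between PDC and cDC and 1 between IKDC and PDC. Of all tested probe sets, 18.9%, 14.9% and 14.5% were under that p. Crlf2, which joins Il7r in the TSLP receptor, read 173 and 341 in IKDC, 503 and 288 in cDC and 296 and 294 in PDC, with overlapping populations. Il13ra1, the partner of Il4ra in the interleukin 13 receptor, is named after its values were seen: it read 33.5 and 64.8 in IKDC, 262 and 267 in cDC and 67.8 and 156 in PDC. Both IKDC signals and that of PDC replicate 1 lay under 148.7, the highest unspiked control of U74C. The difference between IKDC and cDC was -2.15 ± 0.57 (SE, limma adjusted p = 0.0556). The other Il13ra1 probe set passed at -1.95 (limma adjusted p = 0.0348). Il15ra, which presents interleukin 15 to Il2rb, likewise named after its values were seen, read 99.6 and 114 in IKDC, 50.1 and 28.7 in cDC and 27.4 and 51.3 in PDC. Both IKDC samples lay above the others, and the difference from cDC, 1.17, did not pass (limma adjusted p = 0.162).

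By the brightest probe set, 2 of 7 tested JAK and STAT genes outside the members were higher in IKDC than in each other population. Stat4, a STAT factor of interleukin 12 signalling, read 1155 and 1197 in IKDC, 122 and 83.3 in cDC and 145 and 50.5 in PDC. It differed from cDC by 3.35 ± 0.40 (SE, limma adjusted p = 0.000465) and from PDC by 3.53 ± 0.40 (SE, limma adjusted p = 0.000341). Stat3, activated by interleukin 21 among others, differed by 1.80 and 1.25 (limma adjusted p = 0.00351 and 0.0311), but 1 of its 4 tested probe sets passed the call against PDC ended in 8 of 16 settings, and that against cDC ended without the intensity trend (limma adjusted p = 0.0641). Stat5a and Stat5b, the STAT factors that interleukins 2, 7 and 15 activate, did not pass in any comparison. Stat5a read 377 and 385 in IKDC, 480 and 552 in cDC and 372 and 352.5 in PDC, and Stat5b 414 and 264, 433 and 634, and 267 and 317 in the same order.

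In the list of adaptors and the PI3 kinase arm, 1 of 8 tested genes passed by its brightest probe set. Fyn, a Src family kinase, read 1952 and 1636 in IKDC and 1336 and 2558 in PDC against 204 and 241 in cDC. It was higher than in cDC by 2.92 ± 0.33 in IKDC (SE, limma adjusted p = 0.000302) and by 2.97 ± 0.33 in PDC (SE, limma adjusted p = 0.000415), and its other probe set, with 4 of 6 signals under 60, passed in neither. Pik3r1, a regulatory subunit of PI3 kinase, did not pass by its brightest probe set, but 1 of its 4 tested probe sets, the one on U74A, did. That probe set read 287 and 164 in IKDC, 58 and 77.2 in cDC and 75.8 and 49.5 in PDC, a log2 difference of 1.49 from cDC and 1.59 from PDC (limma adjusted p = 0.0424 and 0.0363).

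Of 7 tested inhibitors, by the brightest probe set, Socs2, a feedback inhibitor induced by cytokine signals, was lower than in cDC in both other populations. It read 215 and 323 in cDC, 51.3 and 47.4 in IKDC and 87.1 and 39.2 in PDC, at least 4.39-fold lower in IKDC against the minimum of 60 (limma adjusted p = 0.00871), and -1.89 ± 0.39 in PDC (SE, limma adjusted p = 0.0213). The other probe set of Socs2 did not pass. Monocyte and macrophage markers, 7 genes, summed to 4489 and 4332 in cDC, 468 and 443 in IKDC and 1177 and 843 in PDC. Granulocyte and basophil markers, 8 genes, summed to 766 and 2642 in cDC, 276 and 245 in IKDC and 749 and 213 in PDC. Their part in the differences of Socs2, of Il13ra1 above and of Mcl1 and Pim1 below was not tested. Ptpn6, the phosphatase SHP-1, read 518.5 and 378 in IKDC, 830 and 1116 in cDC and 1052 and 1645 in PDC, and was lower in IKDC than in PDC by a log2 difference of -1.54 ± 0.31 (SE, limma adjusted p = 0.0161). Dimmer probe sets of 2 other phosphatase genes passed. For Ptpn2, the probe set on U74A was higher in IKDC than in cDC by 1.72 and than in PDC by 1.3 (limma adjusted p = 0.00647 and 0.0354), while its brightest probe set did not pass and lay the other way, at -1.19 and -1.08. For Ptpn11, which encodes SHP-2, the dimmer of 2 tested probe sets was higher in IKDC than in PDC by 1.3 (limma adjusted p = 0.0374), and its brightest probe set, at 0.98, did not pass. These probe sets, and that of Pik3r1, are named after their values were seen.

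Of 9 known targets of these cytokines, Bcl2 and Myc were higher in IKDC than in each other population. Bcl2, the survival gene that interleukins 7 and 15 maintain in lymphocytes, read 1490.5 and 1422 in IKDC, 181 and 287 in cDC and 103 and 107 in PDC. Both PDC signals lay under 148.7, the highest unspiked control of U74C. Bcl2 differed from cDC by 2.59 ± 0.36 (SE, limma adjusted p = 0.00167) and from PDC by 3.61 ± 0.36 (SE, limma adjusted p = 0.000223). Of its 6 tested probe sets 4 and 5 passed in that direction. Over these 6 the differences ran from 1.11 to 4.12 against cDC and from 1.26 to 4.17 against PDC. Myc, a growth regulator, read 219 and 199 in IKDC against 51.8 and 39.3 in cDC and 49.2 and 24.1 in PDC, at least 3.47-fold higher against the minimum of 60 (limma adjusted p = 0.0154 and 0.00805). Mcl1, a survival gene, and Pim1, a kinase induced by STAT factors, were lower in PDC than in cDC. Mcl1 read 3820 and 4278 in PDC against 10888 and 12388 in cDC, a log2 difference of -1.52 ± 0.24 (SE, limma adjusted p = 0.00542), and both of its probe sets passed. The IKDC differences of Stat4, Bcl2 and Myc run with the NK cell sums given above, whose part was not tested. Pim1, with 1 of 2 probe sets passing, read 940.5 and 314 against 2126 and 2108, a log2 difference of -1.93 ± 0.46 (SE, limma adjusted p = 0.0415).

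The calls of Stat4, Fyn and Bcl2 passed under all 16 settings. Leaving out 1 sample ended others, here by limma adjusted p. Stat3 against PDC reached 0.181 without IKDC replicate 1, 0.191 without IKDC replicate 2, 0.133 without PDC replicate 1 and 0.104 without PDC replicate 2. Ptpn6 reached 0.0502 without IKDC replicate 1, 0.181 without IKDC replicate 2 and 0.0883 without PDC replicate 2. Socs2 in IKDC reached 0.0595 without IKDC replicate 1, 0.0701 without IKDC replicate 2 and 0.115 without cDC replicate 2, and in PDC 0.0731 without cDC replicate 1, 0.221 without cDC replicate 2 and 0.0903 without PDC replicate 2. Myc against cDC reached 0.182 without IKDC replicate 1, 0.144 without IKDC replicate 2, 0.0625 without cDC replicate 1 and 0.109 without cDC replicate 2, and against PDC 0.136 and 0.104 without IKDC replicate 1 and 2. Mcl1 reached 0.0611 without cDC replicate 2 and 0.0576 without PDC replicate 1. Pim1 reached 0.19 without cDC replicate 1, 0.191 without cDC replicate 2 and 0.215 without PDC replicate 2. Other settings ended calls too, by limma adjusted p. Without the intensity trend Mcl1 reached 0.136, Ptpn6 0.0543, Pim1 0.102 and Stat3 against PDC 0.216. With median centring Mcl1 reached 0.0514, Ptpn6 0.0865, Pim1 0.0649 and Stat3 against PDC 0.0612. Stat3 against PDC also reached 0.0612 without the filter and 0.0915 with adjustment within each array type. Pim1, whose call ended in 8 of 16 settings, also reached 0.0534 with a pseudocount of 1, 0.051 without the filter and 0.071 with quantile normalization.

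**Figure D4:**
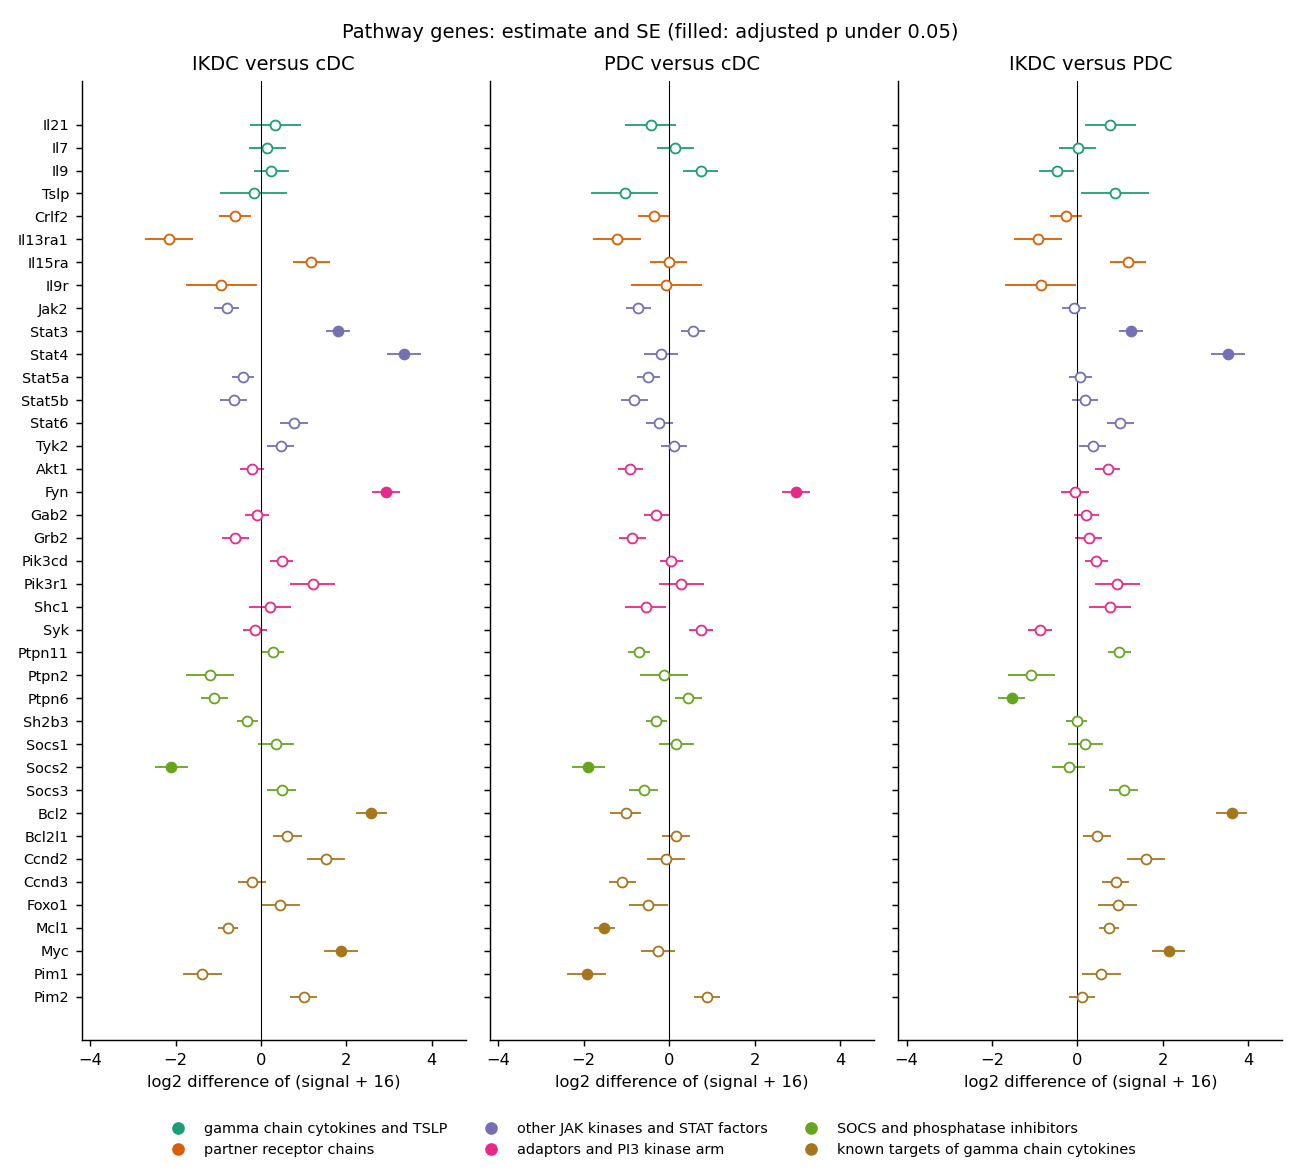
Log2 difference of (signal + 16) for 39 tested pathway genes in 3 comparisons, coloured by list, with points for the limma estimate, bars for its SE and filled points for an adjusted p under 0.05. Stat4 and Bcl2 are filled to the right in both IKDC comparisons, Fyn in IKDC and PDC against cDC, and Socs2 to the left in both comparisons with cDC.

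Genes whose pattern over the 6 samples was most like that of a member were ranked by Pearson's r of log2(signal + 16) on the same array type. The ranking is a description over samples that fall into 3 populations. For Il2rb 112262_at the nearest were Ankrd11 (r = 0.995), a chromatin regulator gene, 0610010F05Rik (r = 0.995), with every signal under 122.7, and Klrk1 (r = 0.993), which encodes the NK receptor NKG2D, and 69 of 4129 genes exceeded 0.95. Klrk1 read 3516 and 3763 in IKDC, 395 and 571 in cDC and 505 and 438 in PDC. For Il7r the nearest were Stard3 (r = 0.983), Cxcr3 (r = 0.98), a receptor for interferon-induced chemokines, and Hspa4l (r = 0.978), a heat shock protein gene, with 28 of 3528 genes over 0.95. The Stard3 signals in IKDC and cDC, 17.3 to 39.4, all lay under 45.2, the highest unspiked control of U74A. Cxcr3 read 1117 and 1362 in PDC, 545 and 603.5 in IKDC and 218 and 208.5 in cDC, the same order of populations as Il7r.

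For Il4ra 102021_at the nearest were Agfg1 (r = 0.991), Akt2 (r = 0.973), a kinase of the PI3 kinase pathway, and G3bp2 (r = 0.968), with 6 of 3528 genes over 0.95. Akt2 read 387.5 and 284 in IKDC, 277 and 197 in cDC and 117.5 and 200.4 in PDC. For Jak1 168512_s_at, on U74C, they were Gm33104 (r = 0.99), Mmrn2 (r = 0.981) and Sgsm1 (r = 0.979), of which the last pair had every signal under 148.7, the highest unspiked control of U74C. For Jak3 they were Psmd11 (r = 0.988), a proteasome subunit gene, Rab10 (r = 0.986), a vesicle transport GTPase gene, and Gnpnat1 (r = 0.986), with Jak3 itself spanning 1.14 log2 units over the 6 samples.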

How the data were processed

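The deposited values are linear signal intensities of 18 arrays, made by the authors in GCOS 1.1.1 with its defaults, per the labels, each array being scaled globally to 150. MAS 5 is named in the submitters' processing notes. Total RNA was amplified in a pair of rounds, per the labels' protocols, which shortens transcripts towards the 3' end. Scaling assumes like total signal in all samples.

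Control probe sets were left out. Each array type was fitted separately with limma 3.58.1 in R 4.3.3 (intensity trend) on log2(signal + 16), which understates changes of low genes, with all 3 populations in 1 model. A probe set was tested where at least 2 of 6 arrays reached 60, and p-values adjusted by the Benjamini-Hochberg method over the array types together. The fit was tested on simulated data. Where both samples of a group were under 60, a fold is a bound: the other group's geometric mean, floored at 60, over 60.

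Symbols came from the platform annotation, updated through gene identifiers to a GRCm38.p6 table: of 36701 probe sets 29131 had 1 symbol, 724 several and 6846 none listed. Promoter entries were matched for 7 of 8 members. Members and lists were chosen with earlier results of these data known. Named pathway genes are the up to 3 per list and comparison with the smallest adjusted p, or the tested gene with the highest mean signal where none passed. Like genes are the 3 with the highest r among tested genes of the array type spanning at least 1 log2 unit. Alternatives changed the pseudocount, filter, scaling, groups in the fit, trend, adjustment, samples and block.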

Additional observations from a re-analysis of the deposited data

How the results depend on the processing

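Every called member difference kept its direction in each setting that tested it. These were all 16 settings, or 15 for Il4ra 102021_at, which the filter at a signal of 200 left out. Without the intensity trend, 2 member probe sets passed between IKDC and cDC instead of 4. Leaving out 1 sample at a time gave 2 to 4 there and 2 to 5 between IKDC and PDC. The count between PDC and cDC was 1 in every setting. Of the recomputed single differences, 344 kept direction and side of the threshold, 23 calls were lost and 8 changed sign, all of them between PDC and cDC and uncalled. After median centring these were Jak3 at 0.0196 and Jak1 168512_s_at at 0.0113. With 1 sample left out, the ranges were -0.40 to 0.34 for Jak3, -0.59 to 0.31 for Jak1 168512_s_at, -0.13 to 0.31 for Il2rb 112262_at and -0.40 to 0.0238 for Il4ra 161192_at. The cause was not tested.

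Calls also ended by limma adjusted p for Il7r between IKDC and cDC with a pseudocount of 64 (0.0554), median centring (0.06) and no trend (0.0763), and between IKDC and PDC with median centring (0.0699). The same held for Il4ra 102021_at against PDC without the filter (0.052) and with quantile normalization (0.0533), and for Jak1 168512_s_at without the trend (0.119 against cDC, 0.123 against PDC). Without the filter Il2ra reached limma adjusted p of 0.175 to 0.879. Median centring moved the median of all tested probe sets between IKDC and cDC from -0.01 to 0.11.

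The deviations of same-numbered samples correlated at -0.09 to 0.24 over the array types. The highest value was between PDC and cDC on U74A, the array type of the Il7r probe set, and all others were under 0.1. Whether same-numbered samples were handled together was not tested. With the replicate block, 4, 1 and 5 member probe sets passed in the 3 comparisons, as without it. Of all probe sets, 1650 instead of 1305 passed between IKDC and cDC. Between PDC and cDC it was 1055 instead of 849, and between IKDC and PDC 1223 instead of 1036.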
